A study of Mus musculus with 4 samples.

Results

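Gas5 (growth arrest specific 5) is a long noncoding RNA gene on mouse chromosome 1, examined here for contacts of the splicing factor SRSF4 in cultured heart muscle cells. Its members are all listed crosslink sites on the plus strand of chromosome 1 between positions 162960000 and 162972000 of the mm9 genome build. They number 12 of the 33749 sites in the series, and they carried 27 of 93371 cDNAs. The rule for the members used position and strand and no depth, but Gas5 itself was picked as the RNA that the study follows up, with earlier results of these data known.

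All libraries came from neonatal cardiomyocytes of C57BL/6 mice taken at postnatal day 0 to 1. The cells received 15 μg of modified RNA coding for SRSF4 joined to green fluorescent protein (SRSF4-GFP), with 21 μL of Lipofectamine 2000, and were irradiated 48 h later with 100 mJ of 254 nm ultraviolet light. The protein measured was therefore an introduced fusion, pulled down with an antibody against GFP, and not the endogenous SRSF4. The method was iCLIP (individual-nucleotide resolution crosslinking and immunoprecipitation), in which the end of each cDNA marks the nucleotide bound to the protein. Each cDNA is meant to stand for 1 recovered RNA fragment. The handling of duplicate reads was not given, so whether the counts here meet this is not known. The labels name 4 libraries in 1 group, with no GFP-only, input or untransfected group. The deposited list sums 5 numbered data sets into a single value per nucleotide, so no value per library and no error between replicates could be given for Gas5. A pull-down from RNA that is abundant in the cells cannot be told apart here from a preference of the protein for that RNA.

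Gas5 is a host gene for small nucleolar RNAs (snoRNAs). Its exons code for no known protein, and the C/D box snoRNAs cut out of its introns guide methylation of ribosomal RNA. The spliced RNA belongs to the transcripts with a 5′ terminal oligopyrimidine tract, is a substrate of nonsense-mediated decay, and is known to bind the glucocorticoid receptor as a decoy for its DNA element. SRSF4 belongs to the serine and arginine-rich proteins, which bind RNA through RNA recognition motifs and take part in the choice of exons.

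In the GENCODE M21 annotation, which describes the GRCm38 build, Gas5 is a plus-strand gene of 4118 nt with 25 transcript models, 20 of them classed as retained intron. The model with the most exons, Gas5-224, has 12 exons of 28 to 81 nt that together make 502 nt, or 12.2% of the gene. Its 11 introns measure 123 to 557 nt. Of these introns, 9 contain a snoRNA, with 10 snoRNA models under 9 gene symbols in all. GRCm38 numbering differs from that of mm9 and no position was carried from one to the other, so a site below is not assigned to an exon, an intron or a snoRNA.

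The snoRNAs are shown because they set this host gene apart from other noncoding RNAs. The 4 sequences below are those of the 3 genes with a Snord symbol (for Snord80 the longer of its 2 models) and of Gm22489, whose distance to Snord80 is used further on. They come from the GENCODE M21 transcripts and lie in Gas5 introns on the plus strand of chromosome 1, at GRCm38 positions 161035850 to 161035911 for Gm22489, 161036984 to 161037049 for Snord78, 161037601 to 161037681 for the longer Snord80 model and 161038082 to 161038158 for Snord47. Capitals mark the first TGATG, the core of the C box, and the last CTGA, the D box, which together define this snoRNA class and are bound by its core proteins.
Gm22489: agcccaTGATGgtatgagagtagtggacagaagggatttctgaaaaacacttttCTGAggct
Snord78: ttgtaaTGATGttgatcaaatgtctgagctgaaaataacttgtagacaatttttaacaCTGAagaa
Snord80: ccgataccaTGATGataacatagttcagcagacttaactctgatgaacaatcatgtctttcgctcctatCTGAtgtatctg
Snord47: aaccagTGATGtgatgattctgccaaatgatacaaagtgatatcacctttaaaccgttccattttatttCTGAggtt
Both strings of letters, searched on the RNA strand only and with TGATG ending before CTGA, were present in all 10 snoRNA models in Gas5, which measure 60 to 84 nt. Among all 454 mouse snoRNA entries of 60 to 100 nt in the same annotation, 364 (80.2%) held both. The 2 strings can share letters in CTGATG, and a match in the letters is no evidence of a contact.

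The listed SRSF4-GFP contacts at Gas5 fell into 3 short clusters spread over 1757 nt, with 6 to 14 cDNAs in each. The first site lay at 162965978 and the last at 162967734. The 3 clusters covered 36 nt, or 2.05% of that span, and nothing was listed between them. The 27 cDNAs have an exact 95% Poisson interval of 17.8 to 39.3, which covers counting error only. The mean was 2.25 cDNAs per site and the median 2, between a lowest value of 1 and a highest value of 5. Other sites outside the mitochondrial chromosome had a higher mean, 2.68, and a lower median, 1. The mean over other plus-strand sites of chromosome 1 was 1.88.

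The most upstream cluster ran from 162965978 to 162966007 and held 6 sites with 14 cDNAs. It began with adjacent sites of 2 cDNAs at 162965978 and 4 cDNAs at 162965979. After a gap of 20 nt to the next site it went on with 1 cDNA at 162965999, 2 at 162966002, 4 at 162966006 and 1 at 162966007. The cluster is thus a pair of peaks, each topped by 4 cDNAs and nearly equal in weight, with 6 cDNAs in the first and 8 in the second. When sites more than 15 nt apart were kept separate, these peaks became clusters of their own and the locus had 4 clusters instead of 3.

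The second cluster lay 1399 nt further on, from 162967407 to 162967410. Its 4 adjacent nucleotides held 3, 2, 1 and 1 cDNAs in the direction of transcription, 7 in all. This was the only stretch at Gas5 with more than 2 sites in a row. The depth was highest at its upstream edge, although values of 1 to 3 cDNAs cannot be ranked beyond their counting error.

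The third cluster followed after 322 nt, at 162967733 and 162967734. It was the narrowest of the 3 and contained the deepest nucleotide of the locus, with 1 cDNA at its first position and 5 at its second. Those 5 cDNAs were 18.5% of the cDNAs at Gas5. In the whole list, 9.02% of sites had more than 5 cDNAs.

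**Figure D1:**
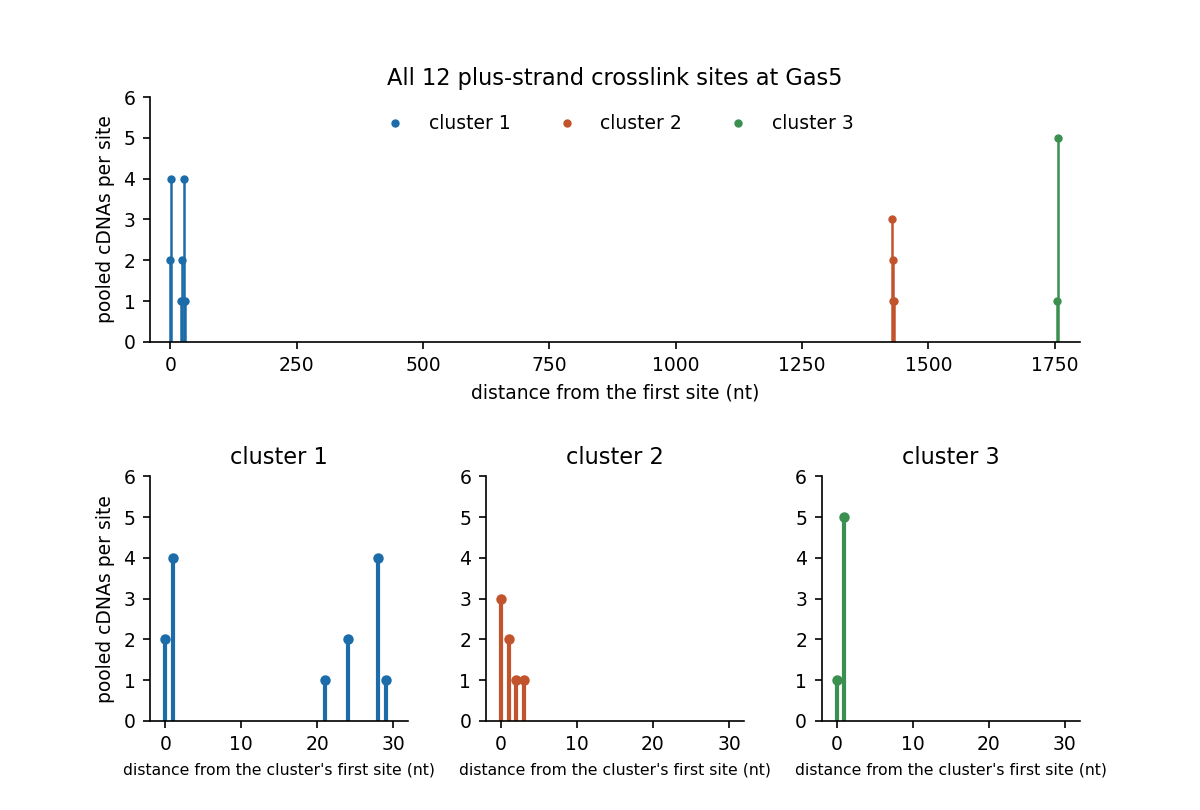
Pooled cDNAs per nucleotide (vertical axis, linear) at each of the 12 listed Gas5 sites, by distance in nt from the first site (top) and from the first site of each cluster (bottom); each line is 1 site. The first cluster has 2 peaks of 4 cDNAs 27 nt apart, the second declines from 3 to 1 over 4 adjacent nucleotides, and the third reaches 5 cDNAs at 1 nucleotide.

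The upstream cluster held about as many cDNAs as the other two together. Its share was 51.9% of the cDNAs (95% exact interval 31.9% to 71.3%), against 25.9% (11.1% to 46.3%) for the second cluster and 22.2% (8.62% to 42.3%) for the third. These intervals treat cDNAs as independent. They overlap one another, so the order of the clusters by cDNAs is not resolved at this depth. By sites the shares were 50% for the first, 33.3% for the second and 16.7% for the third.

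The clusters differed in form more than in total. The first was 30 nt wide, with sites at 20% of its nucleotides, while every nucleotide of the second (4 nt) and of the third (2 nt) was a site. Mean depth was 2.33 cDNAs per site in the first, 1.75 in the second and 3 in the third. Among the 7246 nuclear clusters, nuclear meaning on any chromosome but the mitochondrial one, 7.31% held more cDNAs than the first, 14.1% more than the second and 16.9% more than the third. The median nuclear cluster was 4 nt wide and held 3 cDNAs, so each Gas5 cluster was above the middle of the list in cDNAs, while the third was below it in sites and in width.

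Sites with a single cDNA made up a smaller share at Gas5 than elsewhere, but the 12 sites do not resolve the difference. A single cDNA marked 5 of 12 sites, or 41.7% (95% exact interval 15.2% to 72.3%). The share was 65.6% among the other 32879 nuclear sites, 67.0% among the other 1308 sites on the plus strand of chromosome 1, and 63.8% in the other nuclear regions that also had 12 sites. All of these lie inside the interval for Gas5. That interval treats the 12 sites as independent, although they are neighbours in 1 RNA, so the comparison is not a test. At the upper end, 3 of the 12 sites had 4 or more cDNAs (25%, interval 5.49% to 57.2%), against 13.3% of the other sites on nuclear chromosomes. No Gas5 site had 6 or more, a depth reached by 8.64% of the other nuclear sites.

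**Figure D2:**
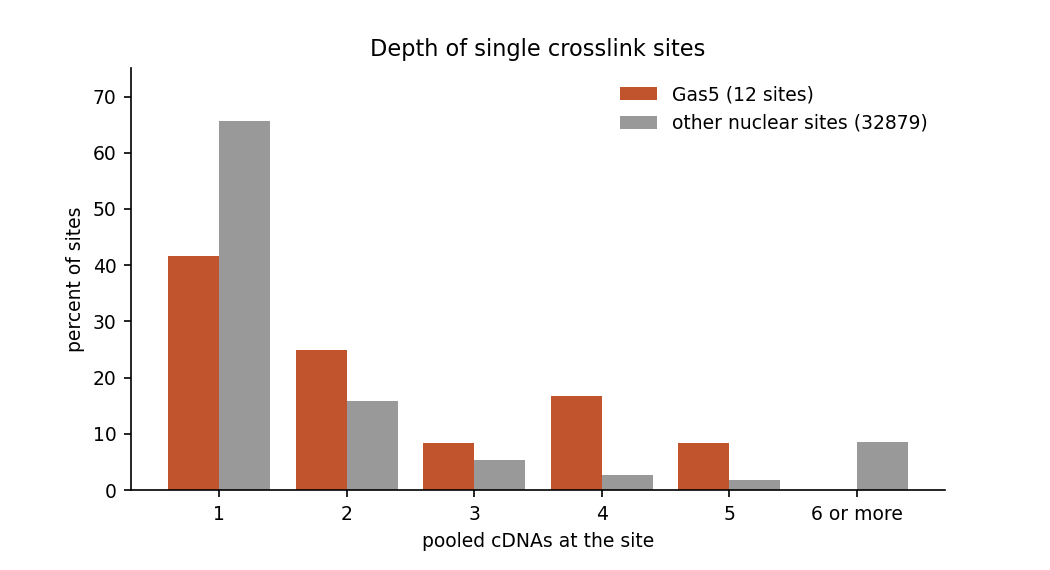
Percent of crosslink sites (vertical axis) with 1, 2, 3, 4, 5 or at least 6 pooled cDNAs (horizontal axis), for the 12 Gas5 sites and the other 32879 nuclear sites. Single-cDNA sites make up 41.7% at Gas5 and 65.6% elsewhere; with 12 sites each Gas5 bar moves in steps of 8.33%, and the interval of its first bar runs from 15.2% to 72.3%.

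Since the authors called sites with a neighbourhood of 15 nt, sums of cDNAs within 15 nt are given here. Regions were handled separately in that call, so the sum needed may differ between regions. The sums therefore do not show how far the Gas5 sites lay above their own limit. All 12 had 6 to 8 cDNAs within 15 nt on their strand, themselves included, with a median of 7. The median was 6 over other nuclear sites and 11 over other plus-strand sites of chromosome 1. Sums of 5 or less were found at 0 of 12 Gas5 sites, at 45.8% of other nuclear sites and at 28.5% of sites in other nuclear regions of 12 sites. The 12 sums are not independent, because neighbours share the same cDNAs and the locus has only 4 separate groups at that distance. The exact upper limit of 26.5% that 0 of 12 sites would allow is for that reason too low.

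Adjacent sites were common at Gas5. Another site lay on the next nucleotide for 10 of 12 sites (83.3%, 95% exact interval 51.6% to 97.9%), and for 65.0% of the other nuclear sites, a value inside the interval. The exceptions were 162965999 and 162966002, which lie 3 nt apart in the downstream peak of the first cluster. Adjacent sites count each other, so the 12 sites are not independent, although the interval treats them so. The comparison is therefore not a test.

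The listed sites around Gas5 were counted on both strands. Its members were chosen on the plus strand, and no minus-strand site was listed in the same 12 kb interval. The nearest plus-strand site before the first Gas5 site was 102 kb away, and the nearest after the last was 852 kb away. On the minus strand the nearest sites were 31.7 kb before and 776 kb after. Within 1 Mb on either side, the plus strand held 29 sites in 4 regions, Gas5 included, and the minus strand 23 sites in 8 regions. The whole plus strand of chromosome 1 held 1320 sites in 175 regions. Whether the surroundings of Gas5 differ in density from the rest of the strand was not tested.

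The layout was also compared with the annotated gene in lengths alone. The span of the sites equals 42.7% of the annotated gene length. Measured between the deepest nucleotides of the clusters (the more upstream one where the first cluster has a tie), the distances were 1428 nt from the first cluster to the second, 327 nt from the second to the third and 1755 nt from the first to the third. Of 45 distances between the starts of the 10 snoRNA models, only those from Gm22489 to the 2 Snord80 models, 1751 and 1754 nt, came within 5 nt of any of these, namely of the 1755 nt. Of all whole distances up to the longest between snoRNA starts, 2914 nt, 14.1% lie within 5 nt of one of the 45. That share is for a single distance, whereas several were compared. The match also rests on the choice within the tie. From the other tied nucleotide, 27 nt downstream, the distance to the third cluster is shorter and not within 5 nt of those 2. The other distances from that nucleotide were not compared. The 2 Snord80 models overlap, so they are not separate matches. The match therefore does not place a site in either snoRNA. The comparison was chosen after the positions had been seen.

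Gas5 carried a very small part of the listed contacts, although most runs in the list were smaller still. It held 0.0356% of all sites (95% exact interval 0.0184% to 0.0621%) and 0.0289% of all cDNAs (0.0191% to 0.0421%). Its sites formed 2 runs, a run being a series of sites on 1 strand with gaps under 500 nt. The upstream run is the first cluster, and the downstream run, 328 nt wide from 162967407 to 162967734, joins the second and the third cluster with 6 sites and 13 cDNAs. By cDNAs they took ranks 464 and 493 of 6415 runs, in ties of 29 and 30 runs, so that 7.22% and 7.67% of runs held more. By sites both were at rank 695, tied with 234 runs in all.

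Other properties of the 2 runs gave similar places. By the highest single site, 6.50% of runs exceeded the upstream and 5.28% the downstream run. By mean cDNAs per site, these values were 7.44% and 8.12%. Only in width did the 2 part, with 8.40% of runs wider than the upstream run of 30 nt and 2.63% wider than the downstream run. The median run held 3 sites and 3 cDNAs and was 4 nt wide. Runs listed next to the Gas5 runs were equal to them in cDNAs, which is given by the ties of 29 and 30 runs. Within a tie, runs were placed by number of sites and then by start position. The 4 runs listed directly around the upstream run also held 14 cDNAs each, at 4 to 7 sites with highest sites of 5 to 9 cDNAs, against 6 sites and a highest of 4 at Gas5. The 4 around the downstream run held 13 cDNAs each.

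When clusters less than 20 kb apart on 1 strand were joined into regions, Gas5 was a single region and 264 of 5448 nuclear regions (4.85%) held more cDNAs. Its value of 27 was shared by 11 regions, Gas5 included. By sites 5.76% of regions had more than 12. Only 233 regions had 3 or more clusters, or 4.28%, and 114 of these had more than 3. The typical nuclear region was much smaller, with a median of 3 sites and 3 cDNAs.

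Among the 119 nuclear regions of exactly 3 clusters, the Gas5 region was narrower than most and held more cDNAs than most. Its 27 cDNAs compare with a median of 12, and 24 of the 119 held more. Its highest site of 5 cDNAs compares with a median of 2, and 21 held a higher one. In sites it was near the middle, with 12 against a median of 11. Its extent of 1757 nt was below the median of 6484 nt, and 86 of the 119 were wider. The annotated gene measures 4118 nt, so sites within it could not reach that median. Among the 27 regions of exactly 12 sites, 7 held more cDNAs than Gas5 and 22 had more single-cDNA sites. The highest site at Gas5 equalled their median of 5, and 10 had a higher one. Its width was above their median of 123 nt, and 12 were wider. These are places in a distribution and were not tested.

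**Figure D3:**
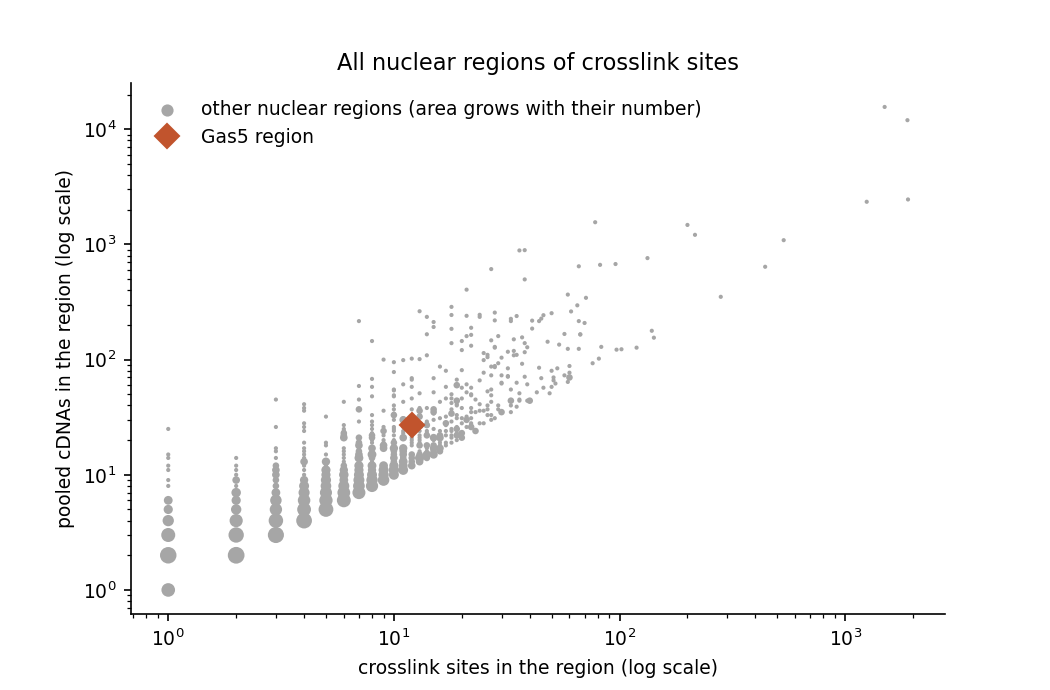
Pooled cDNAs against crosslink sites for all 5448 nuclear regions (both axes logarithmic); grey points are regions, larger where several share a position, and the diamond is Gas5. With 12 sites and 27 cDNAs Gas5 lies above most regions on both axes and far below the few largest regions.

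On the plus strand of chromosome 1 the Gas5 region shared rank 8 of 175 by cDNAs. It held 0.909% of the strand's 1320 sites and 1.09% of its 2484 cDNAs (95% exact interval 0.717% to 1.58%). The leading region, from 137732984 to 137747987, carried 1089 cDNAs at 534 sites, or 43.8% of the cDNAs and 40.3 times those at Gas5. Without that region the Gas5 share was 1.94%. The region from 133043674 to 133060389 had the same 27 cDNAs at 14 sites. The nearest region above held 46 cDNAs (4516496 to 4519150), and those below held 25 (92977942 to 92984594) and 22 (87886210 to 87901017). The neighbours with 22, 25 and 27 cDNAs lie inside the Poisson interval of Gas5 and so cannot be ordered against it. That interval leaves out the counting error of the neighbours, so a value outside it is not thereby shown to differ.

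By sites Gas5 was at rank 10 of the 175, tied with the region of 22 cDNAs, and by clusters only 2 of the 175 had more than 3. The 5 leading runs of this strand by cDNAs showed other forms. The run from 137745968 to 137747356 had 412 sites with 898 cDNAs. The runs from 72301594 to 72301646, from 173041590 to 173041632 and from 172958093 to 172958135 had 122, 110 and 102 cDNAs within 43 to 53 nt, with highest sites of 22, 36 and 52 cDNAs. The fifth, from 133470364 to 133470575, had 71 cDNAs and a highest site of 9. None of the Gas5 clusters reached the highest site of any of these runs.

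**Figure D4:**
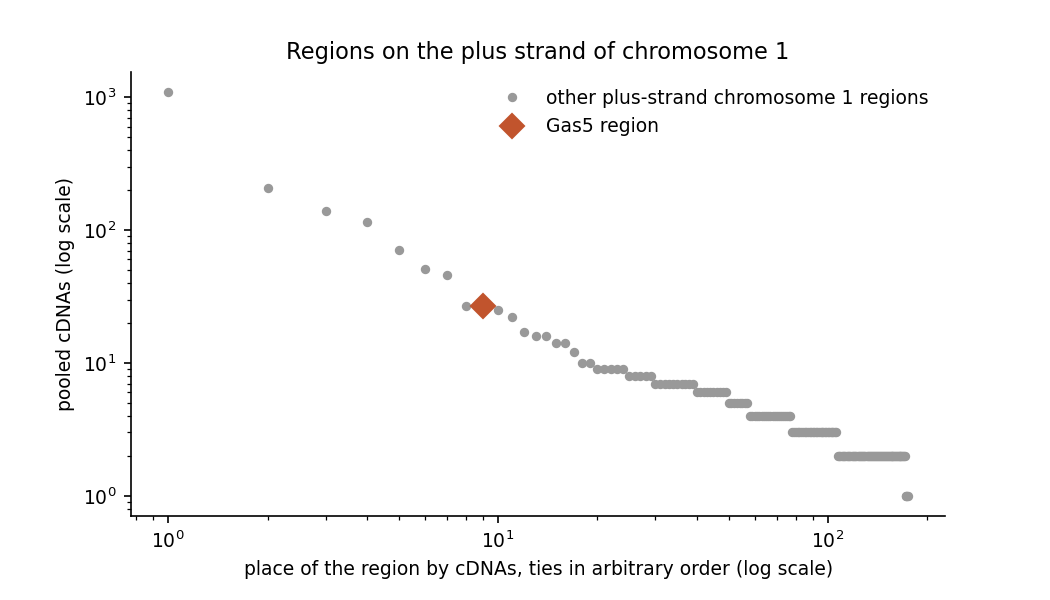
Pooled cDNAs (vertical axis, logarithmic) of the 175 regions on the plus strand of chromosome 1, in descending order (horizontal axis, logarithmic). The leading region has 1089 cDNAs, Gas5 (diamond) has 27 and shares rank 8, and the median region has 3.

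The values at Gas5 are set beside those of a pair of other long noncoding RNAs. On the minus strand of chromosome 19, the run with most sites corresponds by location to the nuclear RNA Malat1 and the next to the paraspeckle RNA Neat1; these 2 names are background knowledge and were not taken from an mm9 annotation. Both runs were taken for having the most sites on that strand, so that they hold more contacts than Gas5 is given by the choice and is no finding. The Malat1 run held 11992 cDNAs at 1887 sites and the Neat1 run 639 cDNAs at 441 sites, which is 444 and 23.7 times the cDNAs at Gas5. Per kb of annotated gene length the values were 6.56 cDNAs for Gas5, 30.8 for Neat1 and 1717 for Malat1. The annotated length of Neat1 is 20771 nt, of which its run spanned 3000 nt. Per kb of the spanned stretch alone the order was the same, with 15.4 cDNAs for Gas5, 213 for Neat1 and 1888 for Malat1. Both lengths for Gas5 are genomic and include introns, since its 12 annotated exons together make only 502 nt. Values per kb of spliced RNA were not compared, and the order of Gas5 and Neat1 need not hold for them. Mean depth per site gave another order, with 1.45 cDNAs at Neat1, 2.25 at Gas5 and 6.36 at Malat1. The abundance of these RNAs was not measured, and its part in the differences was not tested.

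The 3 nuclear regions nearest to Gas5 were chosen by the distance over the logarithms of sites, cDNAs, width and highest site among 5447 others, so their likeness in these values is given by the choice. The nearest, on chromosome 3 (minus strand, 96303461 to 96304971), had 13 sites, 21 cDNAs, 3 clusters and a highest site of 5. A region of chromosome 11 (plus strand, 115274326 to 115275132) had 13 sites and 27 cDNAs in 2 clusters. The other one, on chromosome 5 (minus strand, 122911743 to 122914883), had 14 sites and 23 cDNAs in 2 clusters. They had 7 to 9 single-cDNA sites, against 5 at Gas5.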

How the data were processed

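One deposited file was used, a list of significant crosslink nucleotides on mm9. Its deposited value is a score, the whole number of cDNAs at a nucleotide with the strand as its sign. Per the file header, the authors summed 5 data sets and called positions significant by 100 permutations (neighbourhood 15 nt, false discovery rate under 0.05, regions handled separately), with Ensembl release 59. The labels list 4 libraries and no source states how they relate to the 5 data sets. The submitters' processing notes name Bowtie 0.10.1. The peak caller and the handling of duplicate and multiply mapping reads were not given in the sources used. Per the labels' protocols, RNase I trimmed the RNA to 80 to 200 nt. The depth of each library is unknown, and the labels do not say whether libraries came from separate cultures.

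Positions are 1-based. Clusters join sites at most 50 nt apart, runs have gaps under 500 nt, and regions join clusters less than 20 kb apart, on 1 strand. A rank is 1 plus the number of items with a higher value. Shares have 95% exact (Clopper-Pearson) intervals, which cover counting error only. For shares of sites they treat neighbouring sites as independent. No test between groups was possible, and no comparison across features has called items. Rules named all Gas5 clusters with at least 2% of its cDNAs, its highest sites, the snoRNAs in Gas5, neighbours in rank, the 5 leading plus-strand runs of chromosome 1 and the 3 regions nearest to it (each logarithm divided by its SD over regions of 20 or more sites). A planned rank of the single-cDNA share among runs of 20 or more sites was not made, since Gas5 has 12; regions of 12 sites took its place. Lists of other snoRNA host genes and of cell type markers were not analysed here, as they need an mm9 annotation; the label of the cells was therefore not checked. The members and lists were chosen with earlier results of these data known. The joining of sites and the ranks were tested on simulated data. Python 3.11.15, numpy 2.4.6, pandas 2.3.3, scipy 1.17.1 and matplotlib 3.10.9 were used.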

Additional observations from a re-analysis of the deposited data

How the results depend on the processing

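Of 30 alternatives over 8 results, 27 left the value within 1.5 times of the reported count or rank, or inside the reported interval of a share. With sites of 2 or more cDNAs alone, Gas5 kept 7 sites and 22 cDNAs, in place of 12 and 27, and still had 3 clusters. Joining sites at most 15 nt apart lowered the share of the leading cluster from 51.9% to 29.6%, because the first cluster then divides. By clusters in place of cDNAs, the rank among nuclear regions was 115, in a tie of 119, in place of 265. The rank on the plus strand of chromosome 1 was 8 to 11 under the other definitions of a locus and the other filters, and that among all runs 366 to 695. The filters also reduced the number of items ranked, so a similar rank can be a lower relative place. Rank 8 was among 175 regions, but among 45 when a sum of 5 or more cDNAs within 15 nt was required. After single-cDNA sites were dropped, rank 464 of 6415 runs became 366 of 3112. For nuclear regions, 265 of 5448 then became 221 of 2758. The alternatives with a sum of 5 or more cDNAs within 15 nt, and all for the rank among nuclear regions, were added after the data were seen. No library could be left out in turn, since the list is pooled. No paired analysis was possible because the list has 1 pooled column and the study 1 group.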
